A study of Mus musculus with 30 samples.

Results

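The comparison described here is that of sorted myeloid cells with sorted astrocytes and neurons in brains of non-transgenic (non-Tg) mice. It rests on 15 of the 30 samples of the series, chosen by their labels alone. The 15 are 5 libraries of Cd11b+ myeloid cells, 5 of Gfap+ astrocytes and 5 of NeuN+ neurons, all from 11.5 month old non-Tg littermates of PS2APP transgenic mice. No treatment is named. The labels give each library an identifier of its own but do not say which libraries share an animal, whether animals were pooled, or how the cells were released and gated. The other 15 samples are the same 3 sorts from PS2APP littermates, which bear transgenes for human presenilin 2 and for the amyloid precursor protein, and are used here only as a repeat of the comparison. A gene was called higher in myeloid cells when it passed edgeR's quasi-likelihood test at an adjusted p under 0.05 against astrocytes and, separately, against neurons, and lower when it passed in the other direction against both. Of 17496 genes tested, 3753 were higher and 3929 were lower by this rule.

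Microglia are the resident macrophages of the brain. They descend from yolk sac progenitors rather than from the neural tube that gives rise to astrocytes and neurons, depend on the receptor Csf1r for survival, and are specified by the transcription factors PU.1 (Spi1) and Irf8 and by TGF-beta. Cd11b, encoded by Itgam, is the alpha chain of complement receptor CR3 and is carried by microglia, by macrophages of the brain's borders, by monocytes and by neutrophils, so a Cd11b sort can hold all of them. Myeloid cells signal through receptors coupled to adaptor proteins with activation motifs (ITAMs), among them the pair of Trem2 and Tyrobp, and through kinases, phosphatases and actin regulators of which many have a paralog in other tissues.

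The promoters of the myeloid genes are shown first, since the factor PU.1 is known to act at many myeloid promoters that lack a TATA box. Each sequence is the stretch from 250 bases before to 50 bases after the annotated start in RefSeq (GRCm38.p6), written 5′ to 3′ on the strand of the gene, with the 8 letters GAGGAAGT, a PU.1 site, or their reverse complement in capitals. Itgam (chr7:128062390-128062689, plus strand) and Cx3cr1 (chr9:120068247-120068546, minus strand) are the 2 of 4 myeloid markers with an entry in the promoter table, and neither window holds these letters. Inpp5d (chr1:87620062-87620361, plus strand), Slco2b1 (chr7:99711291-99711590, minus strand) and Cyth4 (chr15:78596797-78597096, plus strand) were of highest mean CPM in myeloid libraries among the 33 genes at least 64-fold higher than in both sorts whose window holds them. They were picked after these values were seen. The letters begin 20 bases before the first base of the gene in Inpp5d, 6 bases after it in Slco2b1 and, on the other strand, 26 bases after it in Cyth4.
Itgam: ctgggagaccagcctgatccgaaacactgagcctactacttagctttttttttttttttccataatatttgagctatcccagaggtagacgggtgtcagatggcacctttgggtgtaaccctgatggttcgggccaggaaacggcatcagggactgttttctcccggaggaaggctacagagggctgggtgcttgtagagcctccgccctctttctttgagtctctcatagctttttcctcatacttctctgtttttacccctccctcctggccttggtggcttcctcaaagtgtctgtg
Cx3cr1: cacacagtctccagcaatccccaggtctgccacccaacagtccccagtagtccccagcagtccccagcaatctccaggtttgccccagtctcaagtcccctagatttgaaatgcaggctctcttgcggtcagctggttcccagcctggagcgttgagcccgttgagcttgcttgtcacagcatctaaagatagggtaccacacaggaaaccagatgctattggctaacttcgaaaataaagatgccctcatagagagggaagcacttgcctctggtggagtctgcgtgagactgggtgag
Inpp5d: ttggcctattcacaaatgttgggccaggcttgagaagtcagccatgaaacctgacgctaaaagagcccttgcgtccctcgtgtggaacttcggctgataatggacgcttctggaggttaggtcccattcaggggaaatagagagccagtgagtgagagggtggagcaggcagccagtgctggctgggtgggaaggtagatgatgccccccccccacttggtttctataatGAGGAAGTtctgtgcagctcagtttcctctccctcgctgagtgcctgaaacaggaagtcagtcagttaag
Slco2b1: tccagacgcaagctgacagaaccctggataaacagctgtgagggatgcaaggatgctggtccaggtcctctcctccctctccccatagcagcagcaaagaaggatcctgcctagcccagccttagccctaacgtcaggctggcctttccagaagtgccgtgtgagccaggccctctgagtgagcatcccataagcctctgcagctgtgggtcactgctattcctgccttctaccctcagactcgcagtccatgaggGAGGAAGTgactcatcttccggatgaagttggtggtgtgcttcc
Cyth4: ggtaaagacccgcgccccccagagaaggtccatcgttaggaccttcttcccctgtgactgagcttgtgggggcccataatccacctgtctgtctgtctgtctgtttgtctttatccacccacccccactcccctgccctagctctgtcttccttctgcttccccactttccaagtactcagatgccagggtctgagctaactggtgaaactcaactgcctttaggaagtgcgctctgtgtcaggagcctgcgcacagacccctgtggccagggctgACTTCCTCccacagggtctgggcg

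The PU.1 letters, searched on both strands, were found in 33 of the 205 promoter windows of genes at least 64-fold higher, or 16.1% (95% Wilson interval 11.7 to 21.7%). Among all 12377 windows of tested genes the share was 2.84%. In the 964 windows of genes at least 4-fold higher it was 8.51%, and in the 1163 windows of genes at least 4-fold lower 1.63%. The related letters CCGGAAGT, the core of widely expressed ETS factors, stood in 0.976% of windows of the 64-fold genes (0.268 to 3.49%), 4.05% of the 4-fold higher, 1.63% of the 4-fold lower and 7.07% of all tested, so they were scarcer in the windows of higher and of lower genes alike. The interferon-response letters GAAANNGAA stood in 14.1% of windows of the 64-fold genes and 7.09% of all tested, and the composite GGAANNGAA, which can overlap both, in 10.7% and 7.28%. The GC box GGGCGG was found in 28.8% of the 64-fold, 48.1% of the 4-fold higher, 46.8% of the 4-fold lower and 58.7% of all tested, and the median window held 5 CpG dinucleotides in the 64-fold set, 11 in the 4-fold higher set and 19 in all tested. TATAAA stood in 11.2% of the 64-fold set, 7.70% of all tested and 14.2% of all windows in the promoter table, whose median window held 7 CpG dinucleotides. TTGCNNAA (C/EBP) stood in 11.7% of the 64-fold set and 8.36% of all tested, and TGANTCA (AP-1) in 8.29% and 5.22%. TGTGGTTT (RUNX) stood in 1.95% and 1.31%, TCACGTGA (MiT factors) in 0.976% and 1.69%, and TTCAGCACC (RE1) in 0.976% and 0.372%. The table gave a window for 205 of 288 genes at least 64-fold higher, and the first listed start was used. The intervals cover counting error only, and a match of letters is not a measured binding site.

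Library totals ran from 3412723 to 6749681 counts, and the myeloid libraries did not differ detectably in this total from astrocyte (two-sided exact permutation test, adjusted p = 0.452) or neuron libraries (two-sided exact permutation test, adjusted p = 0.349). The labels give 10 to 20 ng of RNA as the usual yield from microglia, 2 to 5 ng from astrocytes and 200 to 300 ng from neurons, and a slower spin for neurons, so yield and handling cannot be told apart from the sort. Mitochondrial genes took 5.46 to 12.7% of counts in myeloid, 2.41 to 4.74% in astrocyte and 0.669 to 1.55% in neuron libraries (two-sided exact permutation test, adjusted p = 0.0159 for each of the myeloid comparisons, over 4 tests). The nuclear RNA Malat1 took 3.23 to 5.76%, 20.5 to 29.0% and 8.61 to 10.4%. These shares move with the sort. With mitochondrial and ribosomal RNA genes, Malat1, Lars2 and Mir6236 removed before scaling, 3733 genes were higher and 3904 lower than in both sorts, beside 3753 and 3929 with them, and none of the 509 genes of the lists, families, pairs and naming rule left in the table changed its call. Nothing says that libraries of a sort came from separate animals, so the p-values reflect only how these libraries vary, which may be technical. Astrocyte replicate 1 stood apart from the other libraries of its sort in its ependymal markers. It was highest in the X-inactivation RNA Xist, at 44.5 CPM by library total, beside 3.51 to 16.2. The Y-linked Ddx3y, Eif2s3y and Kdm5d were present there too, at 36.6, 48.6 and 54.2 CPM. In the other astrocyte libraries they stood at 41.8 to 56.4, 85.6 to 102 and 84.9 to 123 CPM. Without astrocyte replicate 1, 3931 genes were higher in myeloid libraries than in both other sorts, beside 3753 with it.

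The 4 markers of the myeloid sort were found at high level in each of its libraries and at far lower level in the others. Itgam (chromosome 7, 128062640 to 128118491, GRCm38), the gene of the sorted protein and so a check of the sort, stood at 1564, 1931, 1522, 1483 and 1445 CPM (counts scaled to library size, with TMM factors) in myeloid replicates 1 to 5, at 1.71, 3.76, 6.78, 11.8 and 5.70 in astrocyte and at 9.44, 5.65, 8.08, 7.50 and 7.78 in neuron libraries. Csf1r, the receptor for the growth factors Csf1 and Il34, stood at 2612, 2251, 2324, 2404 and 2354 CPM in myeloid, 11.1, 11.3, 14.8, 12.3 and 8.18 in astrocyte and 11.5, 8.66, 14.5, 14.2 and 16.6 in neuron libraries. Cx3cr1 (chromosome 9, 120048683 to 120068296), the receptor for the neuronal chemokine fractalkine, stood at 1169, 1759, 1428, 1629.7 and 1505 CPM in myeloid, 6.19, 5.01, 10.2, 8.54 and 10.4 in astrocyte and 5.32, 4.02, 8.08, 6 and 8.08 in neuron libraries. Groups did not overlap for any of these genes. Tmem119 (chromosome 5, 113793729 to 113800396), a surface protein that microglia carry and blood-derived myeloid cells mostly lack, stood at 464, 788, 623, 866 and 706 CPM in myeloid, 3.20, 1.67, 1.85, 5.90 and 3.47 in astrocyte and 1.72, 2.89, 1.86, 3.83 and 3.66 in neuron libraries. For Csf1r the log2 fold change was 7.70 ± 0.22 over astrocyte libraries, adjusted p = 9.05e-17, and 7.51 ± 0.21 over neuron libraries, adjusted p = 8.31e-17. Tmem119 gave 7.67 ± 0.31 and 7.92 ± 0.31, with adjusted p = 5.87e-15 and 3.19e-15.

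The mean level in astrocyte libraries was 0.374% of the myeloid mean for Itgam, 0.482% for Csf1r, 0.538% for Cx3cr1 and 0.467% for Tmem119. In neuron libraries the same genes stood at 0.484%, 0.548%, 0.420% and 0.405%. All of these shares thus lay between 0.374 and 0.548%. Sall1, a zinc finger factor known from microglia, lay outside this range in astrocytes, at 7.71% of the myeloid mean, and nearer to it in neurons, at 0.7097%. The gene of the astrocyte sort, Gfap, averaged 18.5 ± 5.09 CPM in myeloid, 757 ± 179 in astrocyte and 3.81 ± 1.11 in neuron libraries (SD, n = 5 each). The NeuN gene Rbfox3 was at 7.47 ± 0.780 CPM in myeloid, 11.8 ± 6.399 in astrocyte and 129 ± 31.2 in neuron libraries. Each sort was thus highest for the gene of the protein it was sorted on. In bulk libraries, fewer cells of a type and less RNA per cell cannot be told apart, so a low level of a marker in another sort does not say which cells held it.

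**Figure D1:**
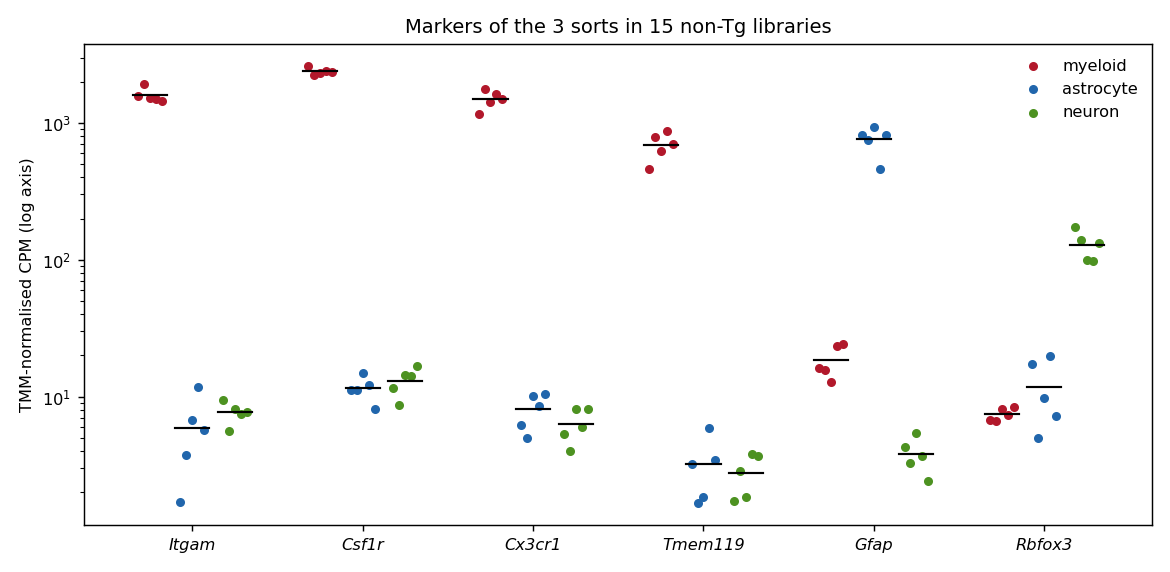
CPM with TMM scaling (log axis) of the 4 myeloid markers and of the genes of the astrocyte and neuron sorts, 1 point per non-Tg library and a bar at the mean of 5. The myeloid libraries lie above all others for Itgam, Csf1r, Cx3cr1 and Tmem119, with astrocyte and neuron libraries between 1.67 and 16.6 CPM.

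Across all genes, 21.5% of those tested were higher in myeloid libraries than in both other sorts and 22.5% were lower, and these shares are the background for each count of a gene list given here. A difference of at least 4-fold against both was found for 1329 genes (7.6%), of at least 16-fold for 586 (3.35%) and of at least 64-fold for 288 (1.65%). On the lower side 2005 genes were at least 4-fold lower (11.5%), 372 at least 16-fold lower (2.13%) and 39 at least 64-fold lower (0.223%). The lower side held more genes at 4-fold and fewer at 16-fold and 64-fold. All 5 myeloid libraries lay above all 10 others for 2779 of the 3753 genes called higher (74.0%) and for 16% of all tested. Against astrocytes alone 4957 genes were higher (28.3%) and 5735 lower (32.8%), and against neurons alone 5811 were higher (33.2%) and 6447 lower (36.8%). Both contrasts share the myeloid libraries. The median log2 fold change over all tested genes was -0.11 over astrocytes and -0.08 over neurons.

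The PS2APP libraries, which the calls did not use, repeated most of the large differences. Of the 288 genes at least 64-fold higher, 250 passed the filter on low counts there and 249 were called higher against both sorts. Of the 1329 genes at least 4-fold higher, 1151 passed the filter and 1122 were called. Of all 3753 genes called higher in non-Tg libraries, 2470 were called again (65.8%), and of the 3929 lower genes 2347 (59.7%), where 17.7% and 18.7% of genes tested were called in the same directions.

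**Figure D2:**
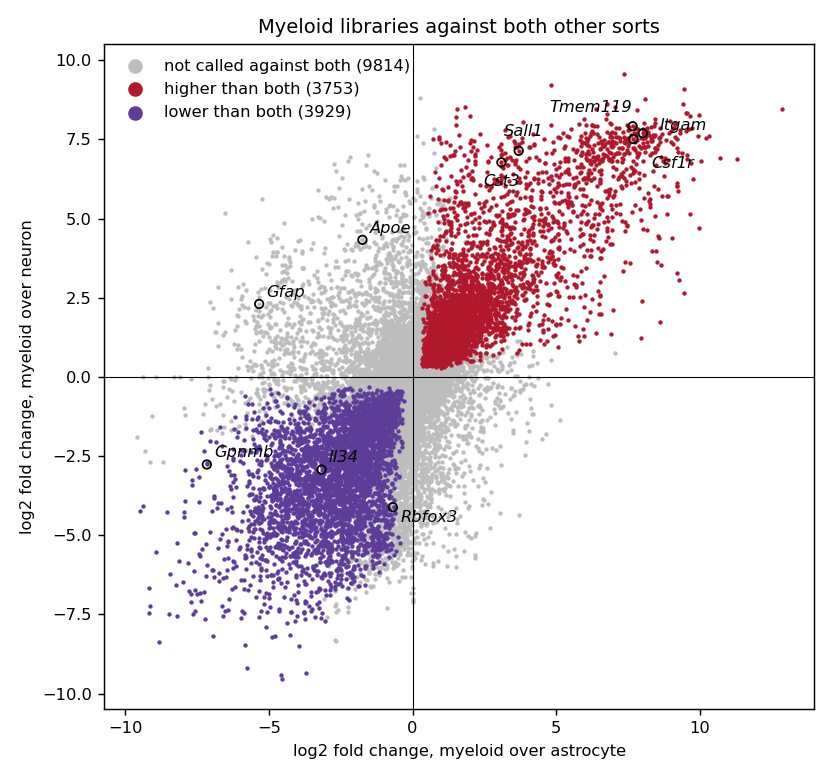
Log2 fold change of myeloid over astrocyte (horizontal) and over neuron libraries (vertical) for 17496 genes, 1 point per gene, colored by its call against both sorts. Csf1r, Itgam and Tmem119 lie at 7.70, 8.02 and 7.67 on the horizontal axis, while Apoe and Gfap are lower than in astrocytes and higher than in neurons.

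The genes named for the largest differences against both sorts, among those with counts in each, included Fcrls, C1qb, Pld4, Bin2, Pik3cg, Vav1, Laptm5, Gcnt1, Crybb1, Itgam and Slco2b1. Fcrls, an Fc receptor-like protein of rodent microglia, stood at 805, 415, 683, 749.6 and 708 CPM in the myeloid libraries and at 1.31 ± 0.735 and 2.54 ± 0.997 CPM in astrocyte and neuron libraries (log2 fold change 8.96 ± 0.33 over astrocyte libraries, adjusted p = 2.10e-15, and 8.08 ± 0.30 over neuron libraries, adjusted p = 1.80e-15). Laptm5, a lysosomal membrane protein of blood cells, averaged 1536 ± 89.6 CPM in myeloid, 3.12 ± 1.65 in astrocyte and 6.99 ± 2.48 in neuron libraries. Pld4, an endolysosomal exonuclease, averaged 582 ± 122 CPM in myeloid libraries. Bin2, a membrane-bending BAR protein, averaged 667 ± 49.2. Gcnt1, a glycosyltransferase, was less even across the myeloid libraries, at 1041, 684, 179, 271 and 205 CPM. Genes with no count in the 5 astrocyte libraries included S100a8, Ly9, Neurl3, H2-Oa, Nlrp1a and Lrrc25. Ly9, a SLAM family receptor, averaged 60.8 ± 10.1 CPM in myeloid libraries, at least 469.8-fold higher than the 3 counts over the 5 astrocyte libraries that a count of 0 allows. In neuron libraries it had 0.516 ± 0.419 CPM. Lrrc25, a leucine-rich repeat protein of myeloid cells, was at least 142-fold higher by the same bound.

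Levels between genes are compared per length, here as the authors' deposited RPKM (read counts scaled to gene length and library size). The nuclear genes highest in the myeloid libraries included Malat1, Cst3, Lars2, Ctsd, C1qb, Srrm2, Epb41l2, Laptm5 and S100a9. Cst3, the protease inhibitor cystatin C, had 1327 ± 312 RPKM (SD, n = 5). Ctsd, the aspartic protease of lysosomes, had 447 ± 101, and C1qb, a chain of complement C1q, 272 ± 44.4. Of these genes Malat1 was lower than in both other sorts and the splicing protein gene Srrm2 was not called, while the rest were higher. Lars2, a mitochondrial leucyl-tRNA synthetase whose locus can take up ribosomal RNA reads, stood at 17833, 7964, 9894, 6496 and 7989 CPM and was highest in replicate 1.

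In all, 485 genes stood in the 29 lists of pathways and functions, of which 442 passed the filter, 315 were higher than in both sorts, 42 lower and 85 called in neither direction. Most lists name genes known from macrophages, so a share above the background of 21.5% describes the lists as much as the cells. Of the 315 higher list genes, 305 were tested in the PS2APP libraries and 291 were called higher there too. Of the 42 lower list genes, 41 were tested there and 30 were called lower. The higher genes tested but not called there were Adgrg1, Fcgrt, Itgav, Smad4, Dagla, Glb1, Ppt1, Scarb2, Tap2, Scarb1, Cd2ap, Ifitm3, Xaf1 and Gbp3. On the lower side they were Itgb8, Tgfb2, Tgfb3, Cnr1, Gla, Bdnf, Gpnmb, Ifit1, Fos, Ccna2 and Mdk. Cnp, Cd47 and Pls3, called outside these lists, were called in neither direction there as well.

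**Figure D3:**
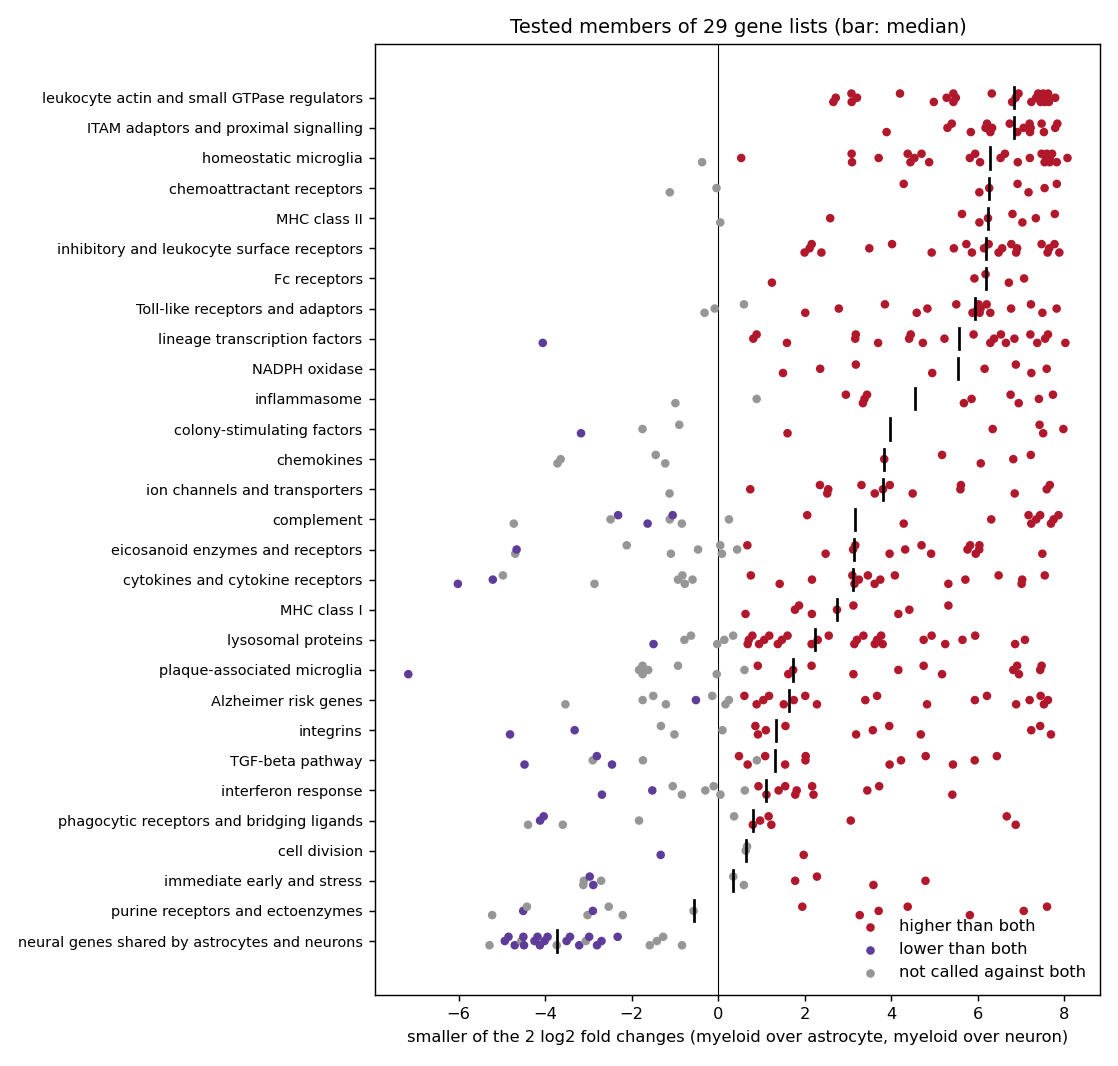
The smaller of the 2 log2 fold changes (horizontal axis; myeloid over astrocyte, myeloid over neuron) for each tested member of the gene lists (rows), with a bar at the list's median and color for the call against both sorts. The leukocyte actin and small GTPase regulators, the ITAM adaptors and the homeostatic microglia genes lie at the top, and the neural genes listed as shared by astrocytes and neurons at the bottom, with 17 lower members and none higher.

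The transcription factors of the myeloid lineage were mostly higher in the myeloid sort. Of 25 listed, 22 were tested, 21 were higher and 1 lower, with median log2 fold changes of 5.57 over astrocyte and 6.57 over neuron libraries. Spi1, which encodes PU.1, stood at 128, 79.4, 104, 93.1 and 98.6 CPM in myeloid, 0.427, 0, 0.925, 0.155 and 0 in astrocyte and 0.515, 0.126, 0.414, 0.833 and 0.610 in neuron libraries (log2 fold change 8.46 ± 0.42 over astrocyte libraries, adjusted p = 1.38e-13, and 7.63 ± 0.38 over neuron libraries, adjusted p = 9.47e-14). Irf8, its partner in myeloid development, averaged 346 ± 75.8 CPM in myeloid, 0.588 ± 0.415 in astrocyte and 2.33 ± 0.442 in neuron libraries. Runx1, a factor of blood cell progenitors, averaged 157 ± 26.4 CPM in myeloid, 0.538 ± 0.493 in astrocyte and 0.835 ± 0.258 in neuron libraries. Both were far below their myeloid level in the other sorts. Hhex, a homeobox gene, averaged 64.4 ± 6.14 CPM in myeloid, 0.209 ± 0.197 in astrocyte and 0.209 ± 0.230 in neuron libraries. Tal1, known from early blood formation, averaged 73.1 ± 16.1 CPM in myeloid, 0.149 ± 0.333 in astrocyte and 0.612 ± 0.216 in neuron libraries. For Hhex and Tal1 the other sorts were near the floor of counting. Sall1, in contrast, had 151, 116, 128, 101 and 128 CPM in the astrocyte libraries, all above the 14.3 CPM of the highest neuron library and below the 1168 CPM of the lowest myeloid library. Mef2c, a factor shared with neurons, averaged 455 ± 49.96 CPM in myeloid, 51.8 ± 7.36 in astrocyte and 245 ± 15.9 in neuron libraries, and its log2 fold change over neurons was 0.89 ± 0.13 (adjusted p = 4.48e-06). Bhlhe40 and Bhlhe41, a pair of basic helix-loop-helix repressors, were called in opposite directions. Bhlhe41 averaged 162 ± 25.2 CPM in myeloid, 92.2 ± 10.0 in astrocyte and 58.9 ± 10.1 in neuron libraries. Bhlhe40 averaged 8.59 ± 4.96 CPM in myeloid, 147 ± 14.6 in astrocyte and 50.6 ± 6.15 in neuron libraries. Cebpb, Tfec and Klf2 did not pass the filter, and with no filter Cebpb and Klf2 were called higher, at 4.11 ± 1.60 and 1.92 ± 1.66 CPM in myeloid libraries.

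Of 26 genes of resting (homeostatic) microglia all were tested and 25 were higher than in both sorts, 21 of them by at least 16-fold against both. The median log2 fold changes were 6.62 over astrocyte and 6.70 over neuron libraries. P2ry12, the ADP receptor by which microglial processes find injury, stood at 468, 385, 369.6, 500.4 and 374 CPM in myeloid, 4.70, 7.73, 8.94, 8.54 and 7.19 in astrocyte and 4.804, 5.77, 9.32, 8 and 6.405 in neuron libraries. The groups were far apart for P2ry12. Siglech, a sialic acid binding lectin, averaged 1135 ± 78.0 CPM in myeloid, 6.34 ± 2.66 in astrocyte and 4.57 ± 1.23 in neuron libraries. Slc2a5, a fructose transporter, averaged 143 ± 29.5 CPM in myeloid, 0.0992 ± 0.222 in astrocyte and 0.737 ± 0.374 in neuron libraries. Selplg, a selectin ligand, averaged 1099 ± 219 CPM in myeloid, 1.94 ± 2.15 in astrocyte and 5.79 ± 2.00 in neuron libraries. Other members had more in astrocytes than in neurons. Sparc, a matrix protein, averaged 743 ± 107 CPM in myeloid, 87.7 ± 28.5 in astrocyte and 8.96 ± 3.34 in neuron libraries. The level of Cst3 was 3671 ± 879.9 CPM in myeloid, 429.8 ± 77.3 in astrocyte and 33.5 ± 4.68 in neuron libraries. Adgrg1, an adhesion receptor, averaged 378 ± 49.9 CPM in myeloid, 261 ± 39.2 in astrocyte and 10.4 ± 0.993 in neuron libraries. For Adgrg1 the log2 fold change over astrocytes was 0.53 ± 0.14 (adjusted p = 0.00255). In PS2APP libraries it was -0.17 ± 0.15 (edgeR's quasi-likelihood test, adjusted p = 0.378), and the call was not repeated. Cd81, a tetraspanin, was the member not called, at 184 ± 28.1 CPM in myeloid, 238 ± 42.7 in astrocyte and 16.8 ± 3.64 in neuron libraries.

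The receptors for colony-stimulating factors were called higher in the myeloid sort and none of their ligands was. Of 9 genes, 8 were tested, and the 5 higher were the receptor genes Csf1r, Csf2ra, Csf2rb, Csf2rb2 and Csf3r. Csf3r, the receptor for granulocyte colony-stimulating factor, stood at 2095, 1824, 1767, 1578 and 1429 CPM in the myeloid libraries, 5.94 ± 1.49 in astrocyte and 10.1 ± 2.97 in neuron libraries. Csf2ra differed far less, at 70.3 to 160 CPM in myeloid, 17.6 to 40.4 in astrocyte and 26.5 to 45.4 in neuron libraries. Il34, the ligand of Csf1r best known from neurons, stood at 1.63, 1.80, 1.21, 1.25 and 4.07 CPM in myeloid, 17.7, 17.8, 19.7, 14.6 and 21.1 in astrocyte and 17.7, 17.1, 10.1, 17.0 and 14.3 in neuron libraries (log2 fold change -3.17 ± 0.33 over astrocyte libraries, adjusted p = 3.11e-08, and -2.92 ± 0.33 over neuron libraries, adjusted p = 7.29e-08). Csf1 was highest in astrocytes, at 124, 107, 92.8, 152 and 111 CPM, beside 22.3, 40.9, 47.6, 33.6 and 30.3 in myeloid and 13.6, 12.8, 8.70, 11.3 and 11.9 in neuron libraries. The myeloid libraries were below the astrocyte libraries for Csf1 (log2 fold change -1.75 ± 0.20, adjusted p = 1.44e-07) and above the neuron libraries (1.58 ± 0.21, adjusted p = 8.20e-07). Csf3 was not called, at 3.46 ± 2.12 CPM in myeloid, 1.12 ± 0.556 in astrocyte and 6.58 ± 1.76 in neuron libraries. Csf2 had no count in any of the 15 libraries.

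Activating and inhibitory receptors were both high. Of 19 genes of ITAM signalling 18 were tested and 18 were higher, with median log2 fold changes of 7.34 over astrocyte and 6.99 over neuron libraries. Trem2, a receptor for lipids and apolipoproteins, stood at 503, 413, 465, 418 and 549 CPM in myeloid, 3.84, 0.209, 1.85, 0 and 0.496 in astrocyte and 3.09, 1.51, 1.86, 2.00 and 4.12 in neuron libraries. Its adaptor Tyrobp stood at 185, 185, 223, 201 and 230 CPM in myeloid, 0, 0.209, 0.616, 0.931 and 0.248 in astrocyte and 0.343, 1.51, 2.28, 0.5 and 1.07 in neuron libraries. No library of another sort came near the lowest myeloid value of either gene. Fcer1g, the adaptor of Fc receptors, averaged 68.2 ± 11.2 CPM in myeloid, 0.820 ± 1.05 in astrocyte and 0.349 ± 0.218 in neuron libraries. Syk, the kinase that ITAMs recruit, averaged 279 ± 19.7 CPM in myeloid, 1.65 ± 1.33 in astrocyte and 3.43 ± 0.652 in neuron libraries. Hcst, the adaptor DAP10, was the member that did not pass the filter, at 3.35 ± 1.53 CPM in myeloid libraries and 0 counts in the other sorts. Of 6 Fc receptor genes 5 were tested and all of these were higher. Fcgr3 and Fcgr1, activating receptors for IgG, averaged 215 ± 12 and 115 ± 26.2 CPM in myeloid libraries. The inhibitory Fcgr2b averaged 41.4 ± 5.02. Fcgrt, the neonatal Fc receptor, had more in astrocytes than in neurons, at 20.2 ± 6.76 CPM in myeloid, 8.51 ± 1.84 in astrocyte and 0.298 ± 0.301 in neuron libraries. Its call as higher was not repeated in PS2APP libraries. Of 23 inhibitory and leukocyte surface receptors 22 were tested and 22 were higher. In these lists, members near 0 in the other sorts passed the filter only through the myeloid libraries. Cd33, a sialic acid receptor, averaged 480.3 ± 85.0 CPM in myeloid, 4.11 ± 1.34 in astrocyte and 1.88 ± 0.773 in neuron libraries. Ptprc, the leukocyte phosphatase CD45, averaged 624 ± 123 CPM in myeloid, 2.06 ± 1.67 in astrocyte and 3.10 ± 0.792 in neuron libraries. Not all of these receptors were near 0 elsewhere. Sirpa, the receptor for the do-not-eat signal Cd47, was present in all sorts at 1553 ± 129.8 CPM in myeloid, 347 ± 46.7 in astrocyte and 173 ± 18.5 in neuron libraries. Lair1, a collagen receptor, reached 117 ± 44.0 CPM in astrocyte libraries beside 507 ± 91.3 in myeloid libraries.

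Of 22 Toll-like receptors and adaptors 20 were tested, 17 were higher, none was lower, and the median log2 fold changes were 5.94 over astrocyte and 7.21 over neuron libraries. Tlr7 and Tlr13, sensors of RNA, averaged 201 ± 68.1 and 109.8 ± 34.4 CPM in myeloid libraries. Tlr9, a sensor of DNA, averaged 93.0 ± 16.1 and Cd14, the co-receptor for lipopolysaccharide, at 64.3 ± 15.2 CPM. Each of these means was under 2 CPM in the other sorts. The double-stranded RNA sensor Tlr3 differed from this, at 86.6 ± 24.8 CPM in myeloid, 108 ± 23.5 in astrocyte and 0.844 ± 0.335 in neuron libraries. So did its adaptor Ticam1, at 63.6 ± 6.46 CPM in myeloid, 67.3 ± 8.50 in astrocyte and 3.92 ± 0.613 in neuron libraries. Neither differed detectably from astrocytes (adjusted p = 0.209 and 0.683, with log2 fold changes of -0.32 ± 0.21 and -0.08 ± 0.16 over astrocytes), and both were higher than in neurons (adjusted p = 4.74e-14 and 6.32e-14). Ly96, the partner of Tlr4, averaged 10.2 ± 4.29 CPM in myeloid, 6.80 ± 4.99 in astrocyte and 2.09 ± 0.867 in neuron libraries and was not called. Of 13 inflammasome genes 12 were tested and 10 were higher. Nlrp3, a sensor of cell damage, averaged 116 ± 20.2 CPM in myeloid, 0.382 ± 0.571 in astrocyte and 0.535 ± 0.274 in neuron libraries. The pore-forming Gsdmd averaged 153 ± 38.3 CPM in myeloid, 2.52 ± 1.63 in astrocyte and 0.929 ± 0.592 in neuron libraries. Il1a, an interleukin, averaged 265 ± 28.7 CPM in myeloid, 2.05 ± 1.42 in astrocyte and 1.28 ± 0.636 in neuron libraries. Another interleukin of this list went the other way. Il18 was higher in astrocytes, at 44.9 ± 4.84 CPM in myeloid, 89.3 ± 10.6 in astrocyte and 4.57 ± 0.698 in neuron libraries (log2 fold change -0.99 ± 0.16 over astrocytes, adjusted p = 1.69e-05). Of 27 other cytokine genes 24 were tested, 16 were higher and 2 lower. The higher ones were mostly receptor chains, such as Il10ra, the receptor for interleukin 10, at 409.6 ± 86.5 CPM in myeloid, 0.564 ± 0.308 in astrocyte and 3.16 ± 0.463 in neuron libraries. Tnfrsf1b, a receptor for tumor necrosis factor, averaged 259 ± 29.8 CPM in myeloid, 1.05 ± 1.15 in astrocyte and 1.31 ± 0.538 in neuron libraries. Pdgfb, a growth factor for vessel-associated cells, averaged 158 ± 18.4 CPM in myeloid, 1.78 ± 0.772 in astrocyte and 11.7 ± 2.33 in neuron libraries. The lower ones were both growth factors. Vegfa, a vessel growth factor, averaged 32.3 ± 17.9 CPM in myeloid, 1180.4 ± 288 in astrocyte and 63.2 ± 15.7 in neuron libraries. Bdnf, a neurotrophin, averaged 0.262 ± 0.471 CPM in myeloid, 2.72 ± 1.29 in astrocyte and 15.97 ± 4.92 in neuron libraries. Tnf had no count in astrocyte libraries and 14.7, 27.1, 2.43, 9.99 and 2.04 CPM in myeloid libraries. Il10 was near the floor of counting in all sorts.

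Receptors for chemoattractants were higher for 7 of 9 tested (12 listed). Cmklr1, the chemerin receptor, averaged 328 ± 55.7 CPM in myeloid, 2.76 ± 1.48 in astrocyte and 1.94 ± 0.538 in neuron libraries. C5ar2, a receptor for complement C5a, averaged 78.6 ± 24.0 CPM in myeloid, 1.11 ± 0.832 in astrocyte and 0.300 ± 0.287 in neuron libraries. Of 13 chemokines 9 were tested and 5 were higher, among them Ccl9 at 19.1 ± 10.9 and the transmembrane Cxcl16 at 38.5 ± 9.25 CPM in myeloid libraries. None of the chemokines was called lower. Cxcl14 was highest in astrocytes, at 5.88 ± 4.25 CPM in myeloid, 80.0 ± 18.99 in astrocyte and 6.38 ± 2.34 in neuron libraries. Cx3cl1, which encodes fractalkine, was highest in neurons, at 9.56 ± 5.24 CPM in myeloid, 11.2 ± 4.31 in astrocyte and 120.2 ± 35.2 in neuron libraries. Purine receptors and ectoenzymes were divided, with 7 higher, 2 lower and 6 in neither direction of 15 tested. The higher ones were P2ry6, P2ry12, P2ry13, P2rx4, P2rx7, Adora3 and Entpd1. P2ry6, the UDP receptor linked to phagocytosis, averaged 240.1 ± 50.4 CPM in myeloid, 0.942 ± 1.07 in astrocyte and 1.19 ± 0.706 in neuron libraries. Entpd1, the ectoenzyme CD39 that breaks down ATP and ADP, averaged 654 ± 167 CPM in myeloid, 31.2 ± 11.1 in astrocyte and 8.65 ± 1.45 in neuron libraries. P2ry14, the UDP-glucose receptor, was lower, at 2.08 ± 1.33 CPM in myeloid, 25.9 ± 5.95 in astrocyte and 50.5 ± 7.98 in neuron libraries, as was the adenosine receptor Adora1, at 13.3 ± 6.52 CPM in myeloid, 99.2 ± 25.4 in astrocyte and 64.4 ± 8.47 in neuron libraries. P2ry1 and Nt5e, the next enzyme after Entpd1 in the breakdown of ATP, averaged 0.642 ± 0.952 and 2.37 ± 0.716 CPM in myeloid libraries.

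The complement list moved in both directions. Of 23 genes 18 were tested, 10 were higher and 3 lower. The initiating chains C1qa, C1qb and C1qc averaged 241 ± 30.4, 1077 ± 173 and 537 ± 60.2 CPM in myeloid libraries, with C1qb at 921, 1200, 942, 1316 and 1005 CPM in the myeloid and 0.854, 0.836, 2.77, 2.79 and 2.48 in the astrocyte libraries. C1qb was thus high in every myeloid library. C4b, the next component, was highest in astrocytes, at 17.5 ± 4.84 CPM in myeloid, 462 ± 51.3 in astrocyte and 1.17 ± 0.687 in neuron libraries (log2 fold change -4.73 ± 0.26 over astrocytes, adjusted p = 5.64e-13). C3 averaged 13.8 ± 1.97 CPM in myeloid, 3.35 ± 1.79 in astrocyte and 0.138 ± 0.169 in neuron libraries. C1ra, C1s1, C2, Cfi and Vsig4 did not pass the filter and were not called without it. The lower members were Cfp, the stabilizer properdin, at 18.5 ± 7.73 CPM in myeloid, 57.7 ± 9.67 in astrocyte and 49.7 ± 9.85 in neuron libraries, the membrane regulator Cd46, at 5.79 ± 2.33, 22.5 ± 8.24 and 29.6 ± 8.22 CPM, and the protease precursor Cfb, whose call was lost in 12 of 24 other settings. Of 16 integrin genes all were tested, 11 were higher and 2 lower. Itgb2, the beta chain that pairs with Itgam, averaged 261 ± 64.3 CPM in myeloid, 1.62 ± 1.02 in astrocyte and 1.76 ± 0.956 in neuron libraries. Itgb5, a chain that pairs with Itgav, averaged 628 ± 72.4 CPM in myeloid, 52.6 ± 9.85 in astrocyte and 4.08 ± 1.37 in neuron libraries. Itgb8, the chain of the integrin that releases active TGF-beta, was lower, at 7.20 ± 1.36 CPM in myeloid, 72.2 ± 21.5 in astrocyte and 15.8 ± 4.75 in neuron libraries. In PS2APP libraries the difference of Itgb8 from astrocytes was found again, but not that from neurons (edgeR's quasi-likelihood test, adjusted p = 0.0994). Among 16 phagocytic receptors and bridging ligands 13 were tested, 7 were higher and 2 lower. Of the receptor tyrosine kinases for phosphatidylserine bridges, Mertk averaged 1274 ± 143 CPM in myeloid, 568 ± 138 in astrocyte and 7.57 ± 2.11 in neuron libraries. Axl was highest in astrocytes, at 80.0 ± 32.6 CPM in myeloid, 284 ± 43.8 in astrocyte and 2.24 ± 1.29 in neuron libraries. Tyro3 was highest in neurons, at 5.37 ± 1.40 CPM in myeloid, 22.1 ± 5.34 in astrocyte and 92.5 ± 10.9 in neuron libraries. Mertk was called higher than in astrocytes (log2 fold change 1.17 ± 0.18, adjusted p = 8.45e-06) and Axl lower (-1.83 ± 0.26, adjusted p = 2.46e-06). Mfge8 and Megf10, a bridging ligand and an engulfment receptor, were higher in astrocytes, at 401 ± 70.8 and 105 ± 10.5 CPM beside 33.4 ± 15.3 and 4.99 ± 1.44 in myeloid libraries.

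In the TGF-beta pathway, on which the microglial program is known to depend, 12 of 18 genes were higher and 3 lower, and the median log2 fold changes were 1.60 over astrocyte and 1.73 over neuron libraries. The ligand Tgfb1 stood at 111, 88.2, 91.6, 71.8 and 61.1 CPM in myeloid, 0.854, 1.88, 0.308, 0.621 and 0.992 in astrocyte and 0.172, 0.251, 0.414, 1.17 and 0.457 in neuron libraries. The other ligands were called lower. Tgfb2 averaged 2.75 ± 1.56 CPM in myeloid, 61.6 ± 2.45 in astrocyte and 10.2 ± 3.12 in neuron libraries. Tgfb3 averaged 2.10 ± 1.32 CPM in myeloid, 12.1 ± 3.19 in astrocyte and 9.25 ± 1.52 in neuron libraries. In PS2APP myeloid libraries Tgfb2 and Tgfb3 were lower than in astrocytes. Neither differed detectably from neurons there (edgeR's quasi-likelihood test, adjusted p = 0.657 and 0.169). Both signalling receptors were higher. Tgfbr1 averaged 599 ± 146 CPM in myeloid, 9.85 ± 2.79 in astrocyte and 7.83 ± 1.56 in neuron libraries. Tgfbr2 averaged 174 ± 35.6 CPM in myeloid, 9.29 ± 4.51 in astrocyte and 2.27 ± 0.711 in neuron libraries. Nrros, which anchors latent Tgfb1 on microglia, averaged 247 ± 25.3 CPM in myeloid, 16.3 ± 14.6 in astrocyte and 6.42 ± 0.903 in neuron libraries. The latent binding protein Ltbp3 was lower, at 16.3 ± 6.87 CPM in myeloid, 114 ± 35.6 in astrocyte and 37.0 ± 5.68 in neuron libraries, and Ltbp1 averaged 5.15 ± 8.89 CPM in myeloid, 40.4 ± 7.84 in astrocyte and 6.88 ± 2.57 in neuron libraries. The transducers Smad2, Smad3 and Smad4 were higher too, with log2 fold changes over astrocytes of 0.68 ± 0.20, 2.78 ± 0.20 and 0.48 ± 0.16. The call of Smad4 was lost in 3 of 24 other settings and was not repeated in PS2APP libraries.

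All 26 leukocyte actin and small GTPase regulators were tested and all were higher than in both sorts, 21 of them by at least 16-fold, with median log2 fold changes of 7.13 over astrocyte and 7.09 over neuron libraries. Nckap1l, the blood cell subunit of the WAVE actin complex, stood at 1618, 1422, 1366, 1549.5 and 1448 CPM in the myeloid libraries. Its widely expressed paralog Nckap1 stood at 25.8, 11.5, 13.3, 23.3 and 24.6 CPM in the same libraries. Per kilobase of exons, Nckap1l made up 98.4% of the summed level of the pair in myeloid, 2.47% in astrocyte and 6.20% in neuron libraries. Other families showed the same. Of 20 paralog families, the member of highest level per kilobase in myeloid libraries differed from that of both other sorts in 16, and 8 families held higher and lower members at once. Most families were listed because a member is known from blood cells, so the number describes the choice as well as the data. The leading member was shared with both other sorts for Arhgdia, with astrocytes for Jak1 and with neurons for Coro1a and Parvg. By deposited RPKM the number was 16 as well, but not of the same families. Rac1 then led in all sorts, Jak1 too, and Dock2 led in neuron as in myeloid libraries, while Coro1b and Parva led their families in neuron libraries.

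**Figure D4:**
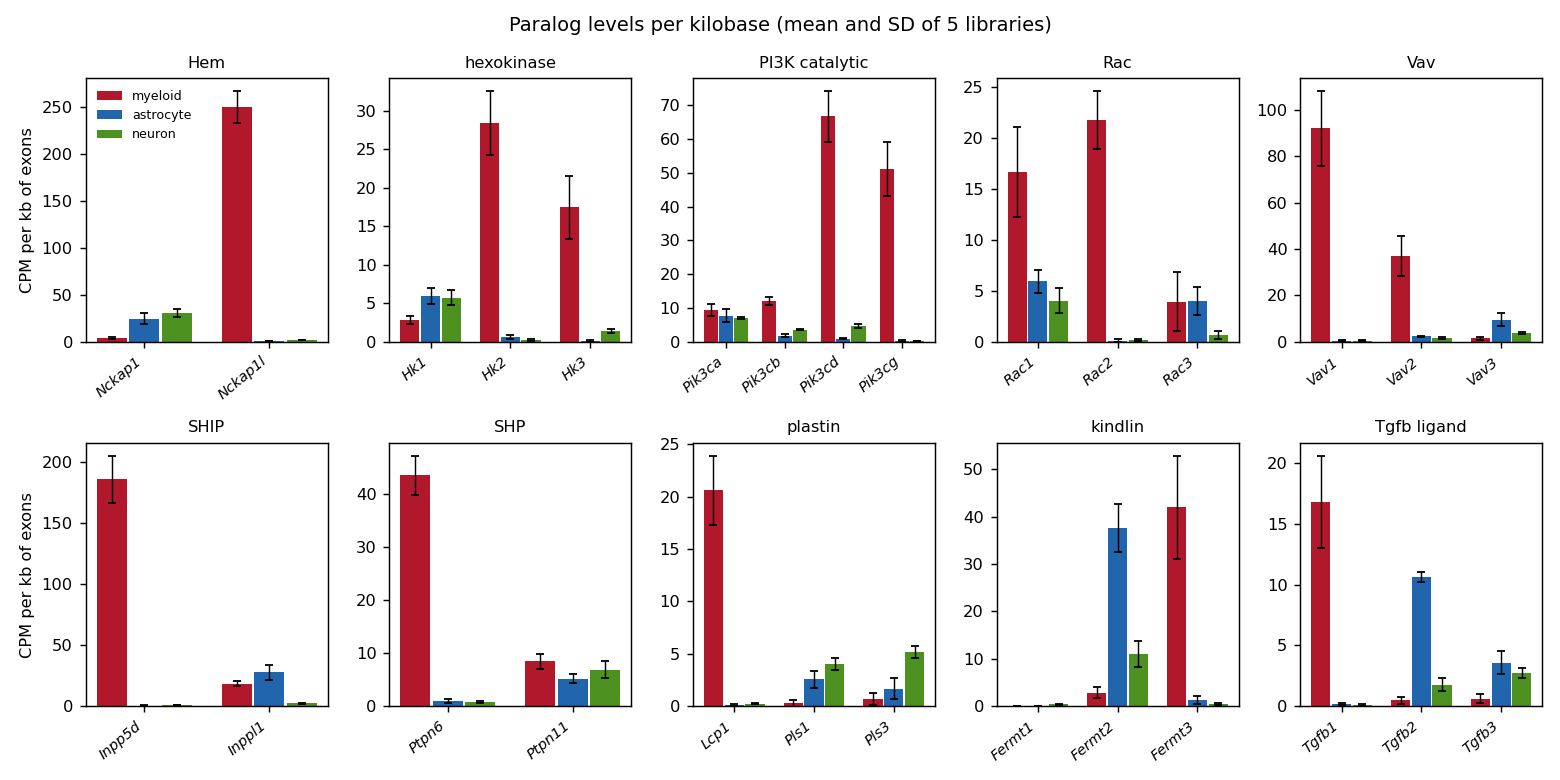
Mean level in CPM per kilobase of exons (vertical axis, from 0) of the members of several paralog families in the 3 sorts, with SD of 5 libraries. Nckap1l, Inpp5d, Ptpn6, Lcp1 and Fermt3 make up 98.4%, 91.0%, 83.7%, 95.6% and 93.5% of their families' levels in myeloid libraries.

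Among hexokinases, which start glycolysis, Hk2 stood at 127, 189, 173, 173 and 185 CPM in myeloid libraries and Hk1, the main brain form, at 25.8, 16.1, 22.4, 27.6 and 25.8. Per kilobase Hk2 had 28.4 ± 4.18 CPM in myeloid, 0.601 ± 0.312 in astrocyte and 0.190 ± 0.109 in neuron libraries, and Hk1 2.76 ± 0.538, 5.89 ± 1.06 and 5.67 ± 0.967. Hk2 and Hk3 were called higher and Hk1 lower. Of the catalytic PI3 kinases, Pik3cd and Pik3cg had 66.8 ± 7.53 and 51.1 ± 8.02 CPM per kilobase in myeloid libraries, and the general form Pik3ca 9.40 ± 1.75, 7.69 ± 2.02 and 6.91 ± 0.348 in myeloid, astrocyte and neuron libraries with no call. Rac2, the blood cell form of the GTPase Rac, had 21.7 ± 2.83 CPM per kilobase beside 16.6 ± 4.41 of Rac1, while by deposited RPKM the order was reversed, at 5.95 for Rac2 and 8.15 for Rac1. Both were higher than in the other sorts. Inpp5d, the inositol phosphatase SHIP1, made up 91.0% of its pair with Inppl1 in myeloid libraries and 1.79% in astrocyte libraries. Of the Src kinases, Lyn had 84.2 ± 11.6 CPM per kilobase and Fyn, which leads in both other sorts, 2.48 ± 0.936. Cyth4, an exchange factor for Arf GTPases, made up 84.7% of the cytohesins. Fermt3, the kindlin that activates integrins of blood cells, had 41.9 ± 10.9 and Fermt2 2.87 ± 1.23 CPM per kilobase. The plastin Lcp1 was higher and Pls1 and Pls3 lower, and the call of Pls3 was lost in 9 of 24 other settings.

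Of the enzyme systems of macrophages, the oxidase that makes superoxide was higher throughout. All 8 NADPH oxidase genes were higher. The catalytic subunit Cybb was at 27.4 ± 12.1 CPM in myeloid, 0.103 ± 0.146 in astrocyte and 0.864 ± 0.184 in neuron libraries. The cytosolic subunit Ncf1 was at 358 ± 53.8 CPM in myeloid, 2.30 ± 0.854 in astrocyte and 3.004 ± 0.400 in neuron libraries. Of 23 eicosanoid genes 22 were tested, 14 were higher and 1 lower. The constitutive cyclooxygenase Ptgs1 averaged 681 ± 62.3 CPM in myeloid, 10.3 ± 2.34 in astrocyte and 9.72 ± 0.943 in neuron libraries, while the inducible Ptgs2 was highest in neurons, at 1.44 ± 0.741 CPM in myeloid, 1.68 ± 1.35 in astrocyte and 37.5 ± 8.22 in neuron libraries. Hpgds, which makes prostaglandin D2, averaged 399 ± 63.4 CPM in myeloid, 3.45 ± 1.36 in astrocyte and 7.06 ± 3.11 in neuron libraries. Alox5ap and Ltc4s, which serve leukotriene synthesis, were higher, while Lta4h was not called, at 20.4 ± 5.47 CPM in myeloid, 23.9 ± 5.81 in astrocyte and 28.2 ± 4.91 in neuron libraries. The cannabinoid receptors divided, with Cnr1 lower, at 3.79 ± 1.77 CPM in myeloid, 10.3 ± 1.58 in astrocyte and 94.98 ± 25.4 in neuron libraries, and Cnr2 higher, at 10.7 ± 4.53 CPM in myeloid, 0.175 ± 0.274 in astrocyte and 0.117 ± 0.198 in neuron libraries. Of 32 lysosomal genes all were tested, 26 were higher and 1 lower, with median log2 fold changes of 2.23 over astrocyte and 2.95 over neuron libraries. Ctsd averaged 3251 ± 708 CPM in myeloid, 121 ± 11.3 in astrocyte and 47.8 ± 7.37 in neuron libraries. Ctss, a cathepsin of antigen processing, averaged 185 ± 36.9 CPM in myeloid, 1.13 ± 1.05 in astrocyte and 1.36 ± 0.855 in neuron libraries. Both were called higher. Lamp2, Gaa, Npc1, Tpp1 and Smpd1 were not called, and the call of the lower member, Gla, was lost in 2 other settings. Of 15 channels and transporters 14 were higher, among them the potassium channel Kcnk6 at 114 ± 42.7 and the iron transporter Slc11a1 at 184 ± 31.9 CPM in myeloid libraries. The call of Kcnj2 was lost in 9 of 24 other settings.

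Antigen presentation genes were higher in the myeloid sort in both classes. Of 10 class II genes 9 were tested and 8 were higher. Cd74, the invariant chain, stood at 162, 219.7, 147, 279 and 103 CPM in the myeloid libraries, 1.63 ± 1.199 in astrocyte and 1.61 ± 0.334 in neuron libraries. H2-Ab1 stood at 54.9, 96.1, 127, 148 and 63.3 CPM in the myeloid libraries, so both were highest in replicate 4 and varied among libraries. Ciita, the class II regulator, averaged 17.3 ± 6.90 CPM in myeloid, 16.8 ± 3.12 in astrocyte and 13.5 ± 1.68 in neuron libraries and was not called. All 9 class I genes were higher. B2m, the shared light chain, averaged 213 ± 44.2 CPM in myeloid, 11.97 ± 3.93 in astrocyte and 6.46 ± 1.43 in neuron libraries. H2-K1, a heavy chain, averaged 116 ± 18.99 CPM in myeloid, 25.9 ± 6.397 in astrocyte and 1.04 ± 0.632 in neuron libraries. The call of Tap2 was lost in 8 of 24 other settings. Of 20 interferon response genes 19 were tested, 11 were higher and 2 lower. Gbp7, a GTPase, averaged 111 ± 16.9 CPM in myeloid, 37.8 ± 11.1 in astrocyte and 1.55 ± 0.522 in neuron libraries. The lower ones were Isg15 and Ifit1. Isg15, a ubiquitin-like protein, averaged 0.281 ± 0.196 CPM in myeloid, 2.05 ± 0.866 in astrocyte and 1.98 ± 0.311 in neuron libraries, and the call of Ifit1 was lost in 13 of 24 other settings. Uniquely aligned reads undercount genes with close copies, among them the class I genes, Nlrp1a and Nlrp1b, and Csf2rb and Csf2rb2.

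The Alzheimer risk list had 18 of 26 genes higher and 1 lower. Beside Trem2, Cd33, Inpp5d and Spi1, the phospholipase Plcg2 averaged 306 ± 69.0 CPM in myeloid, 3.91 ± 1.61 in astrocyte and 4.15 ± 1.23 in neuron libraries. Abi3, a regulator of actin, averaged 1527 ± 234 CPM in myeloid, 4.79 ± 3.19 in astrocyte and 8.74 ± 1.87 in neuron libraries. Bin1, a membrane-bending protein, was also high in neurons, at 901 ± 177 CPM in myeloid, 51.0 ± 16.8 in astrocyte and 223 ± 61.4 in neuron libraries. The lipid carriers Apoe and Clu were highest in astrocytes. Apoe stood at 169, 159, 206, 199.7 and 179 CPM in myeloid, 519, 744, 634, 599 and 567 in astrocyte and 6.69, 8.16, 9.11, 15 and 6.405 in neuron libraries (log2 fold change -1.75 ± 0.18 over astrocyte libraries, adjusted p = 2.91e-08, and 4.33 ± 0.21 over neuron libraries, adjusted p = 8.73e-14). Clu averaged 51.4 ± 12.9 CPM in myeloid, 594 ± 43.9 in astrocyte and 26.0 ± 4.54 in neuron libraries. App, the amyloid precursor, averaged 98.7 ± 9.90 CPM in myeloid, 94.1 ± 20.3 in astrocyte and 279 ± 30.2 in neuron libraries. Ptk2b, a kinase, averaged 236 ± 23.3 CPM in myeloid, 17.3 ± 8.43 in astrocyte and 259.7 ± 53.7 in neuron libraries. Neither of these was called. The mean of App was higher in neurons, while for Ptk2b the myeloid mean lay within the SD of the neuron mean. Sorl1, a sorting receptor, was the lower member, at 112 ± 20.9 CPM in myeloid, 161 ± 18.3 in astrocyte and 160 ± 13.1 in neuron libraries. In these non-Tg brains 13 of 21 tested genes of the plaque-associated state (24 listed) were higher than in both sorts and 1 was lower. The higher ones include genes of all microglia, such as Tyrobp and Ctsd, and Cd9, whose call was lost in 12 of 24 other settings. Gpnmb, a glycoprotein of lipid-laden phagocytes, was the lower member, at 0, 0.361, 0, 0.468 and 0 CPM in myeloid, 45.9, 41.8, 29.6, 22.04 and 27.5 in astrocyte and 0.686, 1.38, 2.28, 1.83 and 1.68 in neuron libraries. Cst7, Lpl and Igf1 were not called, at 2.50 ± 1.61, 3.85 ± 0.729 and 5.46 ± 2.55 CPM in myeloid libraries, and Clec7a and Spp1, at 6.15 ± 4.11 and 3.09 ± 2.02, did not pass the filter. Itgax, the integrin chain CD11c, was higher, at 20.8 ± 8.51 CPM in myeloid, 0.0310 ± 0.0694 in astrocyte and 0.0899 ± 0.0837 in neuron libraries.

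Genes listed as shared by astrocytes and neurons were mostly lower in the myeloid sort. Of 25 such genes, all tested, 17 were lower and none higher than in both sorts, beside 22.5% lower among all tested. All 25 were lower than in astrocyte libraries, while against neuron libraries 17 were lower and 5 higher, so the name of the list did not hold for every member. The median log2 fold changes were -3.51 over astrocyte and -1.64 over neuron libraries. The cell adhesion molecule Ncam1 averaged 67.5 ± 23.9 CPM in myeloid, 1089 ± 79.4 in astrocyte and 403 ± 44.8 in neuron libraries. Dclk1, a microtubule kinase, averaged 41.5 ± 10.7 CPM in myeloid, 656 ± 120.4 in astrocyte and 753 ± 26.7 in neuron libraries. Of the 8 without a call, Sox2, a factor of neural progenitors and astrocytes, averaged 1.95 ± 0.581 CPM in myeloid, 45.1 ± 13.7 in astrocyte and 1.79 ± 0.727 in neuron libraries. The genes named for the largest differences on the lower side were Ranbp17, Kcnj3, Pcdhb13, Nol4, Pcdhb14, Brinp3, Pxdn and Nectin3. Kcnj3, a potassium channel, averaged 4.52 ± 0.888 CPM in myeloid, 161 ± 72.4 in astrocyte and 154 ± 14.3 in neuron libraries. Nectin3, an adhesion molecule of synapses, averaged 1.90 ± 0.769 CPM in myeloid, 74.2 ± 11.2 in astrocyte and 44.3 ± 3.16 in neuron libraries. The clustered protocadherins, Pcdhb13 and Pcdhb14, are close copies of each other, so their counts are uncertain. Immediate early and stress genes, which can respond to cell isolation, were 4 higher and 2 lower of 11 tested. Fos, an immediate early factor, averaged 1.13 ± 0.908 CPM in myeloid, 5.01 ± 2.42 in astrocyte and 9.38 ± 4.88 in neuron libraries. Dusp1, a phosphatase, averaged 9.42 ± 4.04 CPM in myeloid, 70.4 ± 12.5 in astrocyte and 36.8 ± 9.71 in neuron libraries. Both were lower, and Zfp36, a destabilizer of mRNA, was higher, at 137 ± 38.2 CPM in myeloid, 11.4 ± 7.86 in astrocyte and 1.18 ± 0.296 in neuron libraries. Of 10 cell division genes 4 passed the filter. Mcm2 was higher and Ccna2 lower, and the call of Ccna2 was lost in 11 other settings. Mki67, a marker of cycling cells, averaged 15.3 ± 6.10 CPM in myeloid, 2.06 ± 1.30 in astrocyte and 9.83 ± 1.99 in neuron libraries. Cdk1 averaged 0.987 ± 0.967 CPM in myeloid libraries.

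Ligands and receptors that link the sorts were compared by pair. Cx3cl1 was higher in neurons than in myeloid libraries (log2 fold change -3.64 ± 0.37, adjusted p = 1.56e-08) while its receptor Cx3cr1 was myeloid. Cd200, which restrains microglia through Cd200r1, averaged 3.97 ± 2.98 CPM in myeloid, 4.48 ± 2.34 in astrocyte and 28.8 ± 5.57 in neuron libraries, and its receptor had 6.21 ± 1.89 CPM in myeloid libraries, 1.15 ± 0.740 in neuron libraries and no count in astrocyte libraries. Cd47 was lower in myeloid libraries, at 70.1 ± 18.9 CPM in myeloid, 151 ± 23.6 in astrocyte and 143 ± 33.9 in neuron libraries, and its receptor Sirpa was higher. The call of Cd47 was not repeated in PS2APP libraries. Pdgfb was myeloid and its receptor Pdgfrb highest in astrocyte libraries, at 12.3 ± 5.22 CPM in myeloid, 188 ± 26.8 in astrocyte and 3.61 ± 1.07 in neuron libraries. The 6 mural cell markers, Pdgfrb among them, summed to 12.7 to 29.4 CPM in myeloid, 174 to 242 in astrocyte and 10.3 to 15.2 in neuron libraries. In astrocyte libraries Pdgfrb made up most of the sum, and Abcc9 averaged 9.37 ± 1.65, Tagln 5.51 ± 2.15, Acta2 5.12 ± 2.76, Rgs5 1.46 ± 0.627 and Kcnj8 1.02 ± 0.570 CPM. 4 of the markers were tested, of which 3 were lower in myeloid than in astrocyte libraries. Sema4d, a semaphorin, averaged 219.9 ± 18.2 CPM in myeloid, 127 ± 13.4 in astrocyte and 57.3 ± 6.26 in neuron libraries. Its receptor Plxnb1 averaged 32.2 ± 7.04 CPM in myeloid, 1011 ± 184 in astrocyte and 10.8 ± 2.42 in neuron libraries. Gas6 and Pros1, ligands of Mertk, were both higher in myeloid libraries, as was Mertk, with Gas6 at 105 ± 11.9 CPM in myeloid, 53.5 ± 6.64 in astrocyte and 35.5 ± 6.71 in neuron libraries. Igf1 and Igf1r were not called, at 5.46 ± 2.55 and 127 ± 25.6 CPM in myeloid libraries.

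By a rule on likeness over the 15 libraries, the genes most like each marker in log2(CPM + 1) were named. For Csf1r they were Ptgs1, Myo1f, Spi1, Csf2rb and Apbb1ip (Pearson's r 0.997 to 0.998), for Itgam Pik3cg, Abi3, Wdfy4, Lcp2 and Zfp658 (0.996 to 0.997), for Cx3cr1 Adgre1, Vsir, Lyn, Cd300c2 and Ptgs1 (0.995 to 0.997), and for Tmem119 Themis2, Zfp658, Ptpn6, Cysltr1 and Ntpcr (0.993 to 0.995). The values are descriptions over points that fall into a high group of 5 and the low remainder, share library depth, and take most of their r from the gap between the sorts.

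The myeloid libraries also differed among themselves. Among 2319 genes called higher with a mean of at least 32 CPM, the coefficient of variation over the 5 libraries had a median of 18.7% and quartiles of 13.5% and 25.9%. In the 327 of these with a full symbol that were at least 16-fold higher, the steadiest were Cd300c2, a receptor, at 2.56%, Themis2, a signalling adaptor, at 3.29%, Fcgr3 at 5.58% and Csf1r at 5.70%. The most variable were Gcnt1, S100a9, S100a8, Nlrp1b, Retnlg, Mrc1 and Ngp, at 79.0% to 59.9%. S100a8 and S100a9, calcium-binding proteins of neutrophils, stood at 114, 10.1, 371, 166 and 248 and at 117, 38.1, 599.7, 307 and 417 CPM in replicates 1 to 5, lowest in replicate 2 and highest in replicate 3 for both. Ngp and Retnlg, other neutrophil genes, had the same lowest and highest library, at 51.9, 22.4, 143, 69.9 and 92.3 and at 69.0, 6.67, 116, 56.1 and 76.7 CPM. Nlrp1b, an inflammasome sensor, took another pattern, at 315, 43.6, 353, 335 and 76.0 CPM, and its neighbor Nlrp1a shared it, at 31.5, 2.71, 28.2, 35.1 and 3.62 CPM, with replicates 2 and 5 low in both. These genes were picked for their spread after their values were seen.

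Markers of other cells that a Cd11b sort could hold were summed in each library. The 11 neutrophil markers summed to 457, 108, 1404, 724 and 974 CPM in myeloid replicates 1 to 5, to 0.496 to 3.70 in astrocyte and 4.02 to 7.87 in neuron libraries. Of these markers 7 were called higher. Cxcr2 and Ly6g did not pass the filter, at 17.8 ± 11.1 and 3.58 ± 3.43 CPM, and Elane and Mpo, genes of neutrophil precursors, stood under 1 CPM. The 6 monocyte markers summed to 23.6 to 57.5 CPM, with Ccr2 at 16.3, 15.3, 21.5, 35.8 and 19.9. The 9 markers of border macrophages summed to 692 to 1383 CPM, of which Stab1, also a gene of microglia, made up most, at 931 ± 219, while Mrc1 stood at 42.9, 21.1, 61.2, 113 and 48.8 and Pf4 and Cbr2 at 0.850 ± 0.863 and 2.66 ± 2.67. Of these 9 markers 5 were tested and 4 were called higher, beside 21.5% of all tested genes. The 4 were Stab1, Mrc1, Siglec1 and F13a1, of which 3 were at least 16-fold higher. T cell markers summed to 1.09 to 9.23 CPM in myeloid and 4.89 to 10.1 in neuron libraries, B cell markers to 4.85 to 15.3 CPM, and NK cell and mast cell markers to 0.452 to 4.35 and 0 to 0.452 CPM. The neutrophil sums thus differed among myeloid libraries by far more than the sums of the 4 myeloid markers, at 5808 to 6729 CPM. Leaving out each library in turn reversed no call of a gene list gene as higher or lower. In those fits 54 calls were lost among the genes of the rule, lists, families and pairs. As every myeloid library held neutrophil markers, leaving out a single library cannot show their part in the calls. How much neutrophils or border macrophages add to genes that they share with microglia was not tested.

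Neural transcripts were present in the myeloid libraries at reduced level. The 12 astrocyte markers summed to 656 to 1191 CPM in myeloid libraries, 5.30% of the mean in astrocyte libraries, and to 682 to 810 CPM in neuron libraries. The 12 neuron markers summed to 337 to 599.7 CPM in myeloid libraries, 12.3% of the mean in neuron libraries, and to 864 to 1301 CPM in astrocyte libraries, and none of the astrocyte or neuron markers was at 0 in any sort. The sums of the oligodendrocyte markers overlapped between myeloid and astrocyte libraries, at 717 to 1144, 797 to 1290 and 158 to 281 CPM in myeloid, astrocyte and neuron libraries. 7 of these 8 markers were not called. Mbp, a myelin protein, averaged 463 ± 149.8 CPM in myeloid, 336 ± 105 in astrocyte and 111 ± 25.0 in neuron libraries. Cnp, a myelin enzyme, was called higher than in both other sorts, at 91.4 ± 12.2 CPM in myeloid, 47.0 ± 8.02 in astrocyte and 21.0 ± 2.52 in neuron libraries. Its call was not repeated in PS2APP libraries. The part of these transcripts in the calls was not tested.

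**Figure D5:**
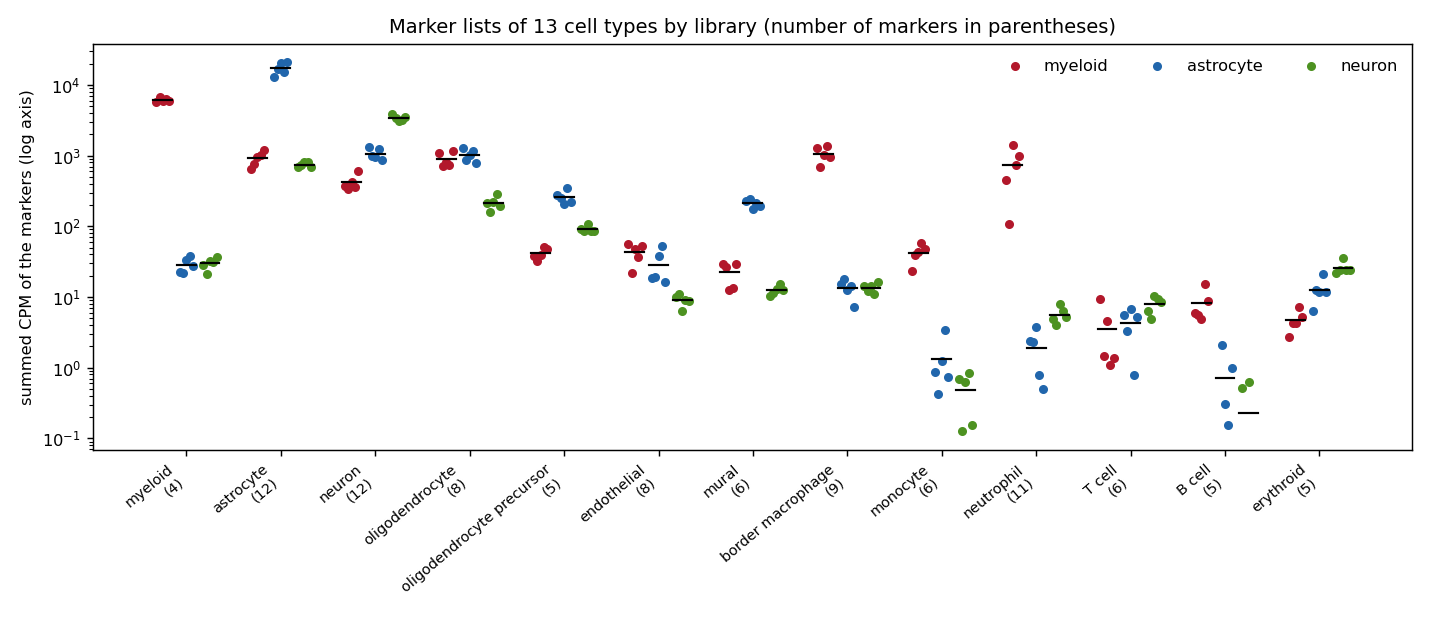
Summed CPM (log axis) of the markers of several cell types in each library, colored by sort, with a bar at the mean of 5 and libraries at 0 not drawn. The neutrophil sums spread from 108 to 1404 CPM among myeloid libraries, and the oligodendrocyte sums of the myeloid and astrocyte libraries overlap.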

How the data were processed

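RNA sequencing gave 1 deposited file for each of the 15 libraries. Its count column holds uniquely aligned reads, summed by gene, per the file headers. Its other column holds RPKM that the authors adjusted with size factors, also per the file headers. GSNAP and GRCm38 were used per the submitters' processing notes, while their versions, the annotation and the strand of the libraries were not given in the sources used here. Of 36528 identifiers 31049 had a symbol in the RefSeq table of GRCm38.p6, with 96.7% of the counts.

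Genotype and cell type labels set the groups. Replicate numbers follow accession order and serve only as names. The deposited counts of the 15 non-Tg libraries were fitted in edgeR (version 4.0.16) under R 4.3.3, after filterByExpr and TMM scaling, with a mean per sort and the quasi-likelihood test of myeloid against each other sort, with Benjamini-Hochberg adjustment over all genes tested. Fold changes are log2 with SE, and CPM use the TMM factors of this fit. The SE was derived from the test, as the absolute log2 fold change over the square root of its F statistic. A count of 3 corresponded to 0.376 to 0.925 CPM in a library. No pair of libraries of a sort were alike within counting noise, the smallest chi-square being 3.94 per degree of freedom. Exon lengths were unions from GENCODE vM21, and the fit was tested on simulated data. Permutation tests used scipy 1.17.1. Alternatives changed scaling, filter, tool (DESeq2 1.42.0), samples, threshold and gene set, and left out each library.

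The comparison, gene lists, families, pairs and motifs were chosen with earlier results of these data known. Named genes were the markers and sort genes, the 12 called genes of largest smaller log2 fold change with at least 32 CPM and 10 counts in each other sort, the 6 most abundant called genes with no count in a sort, the 10 of highest deposited RPKM, the 8 most negative on the lower side, up to 4 members a list of largest difference and those lower or not called, members of families and pairs, and the 5 genes most like each marker. A few of the genes so chosen are not reported here.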

Additional observations from a re-analysis of the deposited data

Results flagged for a closer look

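In 192 groups of 5 libraries (64 values in the 3 sorts), 16 had a library that stood apart from the rest by Dixon's ratio of gap to range above 0.71, where chance gives about 1 in 20. The values of the other libraries of the same sort stand beside each. Myeloid replicate 2 was high for Itgam, at 1931 CPM, beside 1445 to 1564 in the others. Myeloid replicate 1 was low for Hk2, at 127 CPM, beside 173 to 189 in the others, and high for the ependymal markers, at 15.8 CPM, beside 4.30 to 6.67 in the others. Il34 was high in myeloid replicate 5, at 4.07 CPM, beside 1.21 to 1.80 in the others, and Vegfa in myeloid replicate 3, at 63.1 CPM, beside 18.9 to 29.6 in the others. Astrocyte replicate 1 was high for the ependymal markers, at 42.5 CPM, beside 13.9 to 17.8 in the others, and for Nckap1l, at 8.11 CPM, beside 1.67 to 3.47 in the others. Cd74 was high in astrocyte replicate 3, at 3.70 CPM, beside 0.627 to 1.49 in the others, and the monocyte markers in astrocyte replicate 4, at 3.41 CPM, beside 0.418 to 1.23 in the others. Among neurons, Tgfb1 was high in replicate 4, at 1.17 CPM, beside 0.172 to 0.457 in the others, and the erythroid markers in replicate 3, at 35.6 CPM, beside 21.96 to 24.2 in the others. Lars2 and H2-Ab1 were high in astrocyte replicate 1 as well, at 8549 CPM, beside 2287 to 3307 in the others, and 0.641 CPM, beside 0 to 0 in the others. Mrc1 was high in astrocyte replicate 4, at 4.97 CPM, beside 0 to 0.744 in the others, and Retnlg in astrocyte replicate 3, at 1.23 CPM, beside 0 to 0.248 in the others. Btk was low in myeloid replicate 3, at 79.1 CPM, beside 90.2 to 92.1 in the others. No cause was tested for any of these.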

How the results depend on the processing

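Against a 2-fold change (glmTreat in edgeR), 1884 genes were higher and 2367 lower than in both sorts, 2513 higher and 3764 lower than in astrocytes, and 3486 higher than in neurons, as that test asks for larger differences. With no filter on low counts 31004 genes were tested and 1998 were at least 4-fold higher, since more genes were tested. Every other count stayed within 1.5 times its value. Without each library in turn, 3595 to 3931 genes were higher and 3829 to 4083 lower than in both sorts, 1326 to 1437 at least 4-fold higher, 4599 to 5089 higher and 5582 to 6004 lower than in astrocytes, and 5592 to 6035 higher and 6347 to 6756 lower than in neurons. Scaling by library totals moved the median log2 fold change over all genes from -0.08 to -0.29 over neurons and from -0.11 to 0.04 over astrocytes. Scaled so, 5520 genes were higher and 5176 lower than in astrocytes, and 5021 higher and 7040 lower than in neurons. Fitting each pair of sorts alone gave 2679 genes lower than in both. Of 407 called genes of the rule, lists, families and pairs, none was reversed in 24 settings and 396 kept their call in all but the 2-fold test. The others were Ccna2, Cd9, Cfb, Cyth1, Gla, Ifit1, Kcnj2, Map1b, Pls3, Smad4 and Tap2, with adjusted p of 0.0502 to 0.160 where the call was lost outside that test. The PU.1 letters stood in 3.28% of all windows in the promoter table. Deposited RPKM gave the same leading paralog in myeloid libraries in 19 of 20 families, the exception being Rac. No paired analysis was possible because the labels carry no replicate number or animal that links libraries of different sorts. In a single library a count of 0 allowed a level of up to 0.376 to 0.925 CPM, for counting error only.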

Other observations

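Further genes at least 16-fold higher in the myeloid sort varied among its libraries. Tnfsf13b, which encodes the B cell survival factor BAFF, stood at 19.3, 68.9, 27.9, 44.2 and 28.3 CPM in replicates 1 to 5, and Ifi207, an interferon-inducible gene, at 16.8, 55.0, 37.3, 45.4 and 16.5 CPM. Both were highest in replicate 2, the library of lowest S100a8. At the steady end, Dock2, an exchange factor for Rac, stood at 979, 958, 921, 864 and 857 CPM, Btk, a kinase of B cells and myeloid cells, at 92.1, 90.2, 79.1, 92.1 and 91.1 CPM, and Vsir, the checkpoint receptor VISTA, at 826, 953, 867, 960.2 and 912 CPM. The median span from start to end was 16.9 kb for genes at least 64-fold higher, 29.8 kb for those at least 4-fold lower and 23.1 kb for all tested. Protein-coding genes made up 83.7%, 55.0% and 78.5% of the same sets. These sets were chosen by the same contrasts, so the values are descriptions without a test.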
